A study of Mus musculus with 25 samples.

Results

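The miR-99 and miR-100 family was read in the hypothalamus of young adult mice as its 6 mature microRNAs (miRNAs), miR-99a-5p, miR-99a-3p, miR-99b-5p, miR-99b-3p, miR-100-5p and miR-100-3p. The members were taken by name and each had a row of its own among 1618 miRNA entries, in tables that also held 103 piRNA entries. The family was chosen by the folds of miR-99a-5p and miR-100-5p in males given a hypercaloric diet on both sides of weaning (HCD-HCD), against RD-RD and against RD-HCD males, so their values there are a description without a test. All mice were wild type (WT) C57BL/6J aged 3 months. Dams ate regular chow (RD) or a hypercaloric diet (HCD, 52% fat and high in sucrose) for 1 month before mating, through pregnancy and through lactation, and the offspring ate RD or HCD from weaning. A group name gives the dam's diet first and the offspring's diet second, so that HCD-RD offspring met HCD only through the dam and RD-HCD offspring only after weaning. There were 13 male libraries, 4 of RD-RD and 3 of each other group, and 12 female libraries, 3 in each group.

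Family members are made from 3 hairpins, each of which can yield a 5p and a 3p strand. A strand loaded into an Argonaute protein pairs through its seed, bases 2 to 8 from its 5′ end, with messenger RNAs and lowers their translation and stability. The 5p strands are the usual guides of these hairpins and are known to repress the messages of Mtor, the growth and nutrient-sensing kinase, and Igf1r, the receptor of insulin-like growth factor 1. They are relatives of the miR-10 miRNAs, and each hairpin stands in a cluster with a let-7 and a miR-125 hairpin, an arrangement kept from flies to mammals.

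The mature sequences are shown because the shared seed is what makes the 3 guides a family and because reads of near-identical strands can be hard to tell apart. They are RefSeq sequences of build GRCm38.p6, and all 6 members were matched. Capitals mark the seed.
mmu-miR-99a-5p: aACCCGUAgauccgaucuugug
mmu-miR-100-5p: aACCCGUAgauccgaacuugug
mmu-miR-99b-5p: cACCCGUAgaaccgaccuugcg
mmu-miR-99a-3p: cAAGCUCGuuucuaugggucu
mmu-miR-99b-3p: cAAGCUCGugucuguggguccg
mmu-miR-100-3p: aCAAGCUUgugucuauagguau
Among 1679 mature names searched, the seed ACCCGUA was found in these 3 guides alone. The guides of miR-100 and miR-99a are identical at 21 of 22 positions and differ by A16U, counted from 1 at the 5′ end with the base of miR-100-5p first. From miR-99a-5p to miR-99b-5p there are 4 differences, A1C, U11A, U16C and U21C, and all lie outside the seed. On the other arm, miR-99a-3p and miR-99b-3p share the seed AAGCUCG, whereas miR-100-3p has a seed of its own, CAAGCUU. Since miR-99a-5p and miR-100-5p differ at 1 base, and the sources used here do not give the rule by which reads were assigned, the separate values of these guides are uncertain.

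The hairpins of Mir99a and Mir100 are shown for the place of each strand, with both mature arms in capitals.
Mir99a, chr16:77598936-77599000, plus strand: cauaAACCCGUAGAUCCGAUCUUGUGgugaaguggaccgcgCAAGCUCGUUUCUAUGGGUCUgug
Mir100, chr9:41531425-41531504, plus strand: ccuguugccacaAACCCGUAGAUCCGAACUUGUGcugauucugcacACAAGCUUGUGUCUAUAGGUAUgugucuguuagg
In the GENCODE M21 annotation of the same build, Mir99a lies in an intron of the noncoding gene Mir99ahg, and Mir100 lies in introns of the noncoding genes 3110039I08Rik and Gm49317. On the opposite strand Mir99a lies in an intron of the protein-coding gene Gm11146, and Mir100 overlaps an exon of Gm48742. The Mir99b hairpin, chr17:17830188-17830257 on the plus strand, lies in an intron of Spaca6, a protein-coding gene with a role in the fusion of sperm and egg.

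The deposited tables hold 1 fold and 1 DESeq2 p-value per miRNA and comparison, and values per library were not used here, so the depth is unknown and no level can be given. A fold is the normalised level in a diet group over that in RD-RD of the same sex. An error on the log2 scale was taken from each fold and its p, and is called the implied standard error (SE). Whether libraries came from separate animals, dams or litters is not in the labels, so p-values measure only the spread among these libraries, which may be technical. The tissue was bulk hypothalamus, in which a smaller number of cells and less RNA per cell cannot be told apart. Order numbers in the library names put RD-RD libraries and RD-HCD females in 1 numbered set of 16, and 6 of those numbers recur among HCD-HCD and HCD-RD male libraries, so numbered set and diet group cannot be told apart in the comparisons with RD-RD, other than that of RD-HCD females. The median log2 fold of all miRNAs with a p was -0.27 in HCD-HCD males, -0.25 in HCD-RD males and -0.14 in RD-HCD males, and between -0.06 and 0.06 in the female groups. Among miRNAs without a low-count remark it was 0.06, 0.08 and -0.01 in those male groups. Relative to the median of all miRNAs, the log2 folds of miR-99a-5p, miR-100-5p and miR-99b-5p described next become 1.55, 1.55 and 1.03 in HCD-HCD males and 0.81, 1.09 and 0.90 in HCD-RD males.

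The guides miR-99a-5p and miR-100-5p stood highest in males fed HCD after weaning by dams fed HCD. Each had a fold of 2.43 in the authors' deposited table for HCD-HCD males against RD-RD males, with implied log2 SEs of 0.22 and 0.24. The 95% interval ran from 1.81 to 3.26 for miR-99a-5p and from 1.75 to 3.38 for miR-100-5p. These are the values that chose the family. Only 10 of the 766 miRNAs without a low-count remark, the pair included, had a fold that large in this comparison. The third guide, miR-99b-5p, stood at 1.7-fold in the authors' deposited table (95% interval 1.2 to 2.40). All 3 guides were among the miRNAs called at an adjusted p under 0.05 in this comparison, where 19.3% of all miRNAs tested were called and 5.61% were called higher, and nothing is read from that count.

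The same guides were also above RD-RD in HCD-RD males, which met the hypercaloric diet only through the dam. miR-100-5p rose 1.79-fold in the authors' deposited table, a log2 fold of 0.84 with an implied SE of 0.24 from 3 against 4 libraries, and the Benjamini-Hochberg adjusted p of the authors' DESeq2 test was 0.0058. miR-99a-5p was at 1.47-fold (implied log2 SE 0.22, adjusted p = 0.053) and miR-99b-5p at 1.57-fold (implied log2 SE 0.25, adjusted p = 0.054) in the authors' deposited table, both just short of the threshold. One of the 6 members was therefore called, where 18.4% of all miRNAs tested were called and 6.38% were called higher. When p-values were adjusted over miRNAs without a low-count remark only, all 3 guides passed, and under Holm's adjustment none did. Of 775 such miRNAs, 71 had a fold at least as large as that of miR-100-5p and 156 at least as large as that of miR-99a-5p. This comparison shares its RD-RD libraries with the one that chose the family.

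In RD-HCD males, which met the hypercaloric diet only after weaning, the guides stood near the RD-RD level. miR-99a-5p and miR-100-5p were each at 0.93-fold in the authors' deposited table, with 95% intervals of 0.68 to 1.27 and 0.67 to 1.29. miR-99b-5p was at 1.04-fold in the authors' deposited table (adjusted p = 0.98). None of the 6 members was called by the authors' DESeq2 test in this group, where 1.47% of all miRNAs tested were called. None had an unadjusted p under 0.05, which 12.5% of all miRNAs had. In males, then, the order from low to high was the same for miR-99a-5p and miR-100-5p, with RD-HCD lowest, then RD-RD, HCD-RD and HCD-HCD. High values in HCD-HCD against RD-RD and RD-HCD chose the family, so this order is a description. RD-HCD and RD-RD, the lowest neighbours, did not differ beyond their error, and after centring on the median of all miRNAs the log2 fold of both guides in RD-HCD went from -0.10 to 0.03. Between RD-RD and HCD-RD, miR-100-5p passed the test and miR-99a-5p did not. Between HCD-RD and HCD-HCD, the 95% interval of the log2 difference spanned 0 for miR-100-5p (-0.07 to 0.95) but not for miR-99a-5p (0.27 to 1.18).

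**Figure D1:**
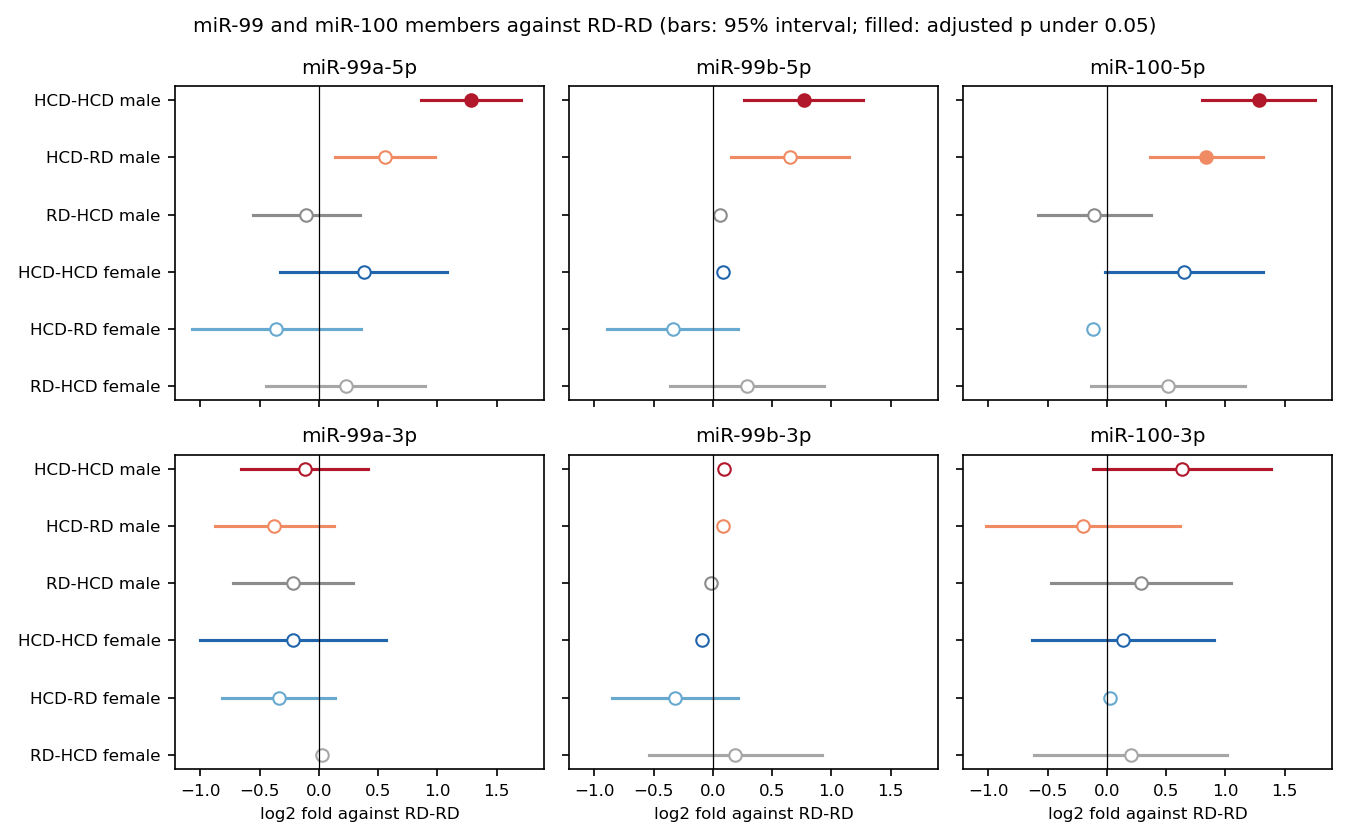
Log2 fold of each member against RD-RD of the same sex (horizontal axis) in the 6 comparisons (vertical axis), with guides in the upper row and 3p strands in the lower row. Points are folds from the authors' deposited tables, bars are 95% intervals from the implied errors and are missing where the log2 fold was under 0.1 in size or had no p, and filled points had an adjusted p under 0.05. The 4 filled points are all guides in HCD-HCD or HCD-RD males, and no 3p strand has one. Folds of guides in HCD-HCD males chose the family, so the filled points in that group are a description and nothing is read from their count. Of all miRNAs tested, 19.3% were called in HCD-HCD males and 18.4% in HCD-RD males.

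Differences between diet groups were then built from folds of 1 table, and the RD-RD libraries that both folds share entered once. Between HCD-RD and RD-HCD males, whose diets were exchanged between dam and offspring, the log2 fold of miR-100-5p differed by 0.94 (95% interval 0.44 to 1.45), a 1.92-fold higher level in HCD-RD. The normal test of that difference gave an adjusted p of 0.0055 over 718 miRNAs. The RD-HCD male libraries also stand in the list that chose the family, as its lower group for these guides, so this difference is not independent of that choice. The difference was 0.66 for miR-99a-5p (0.19 to 1.13, adjusted p = 0.055) and 0.59 for miR-99b-5p (0.06 to 1.13, adjusted p = 0.17). Hence 1 guide passed the threshold, where 9.05% of all miRNAs tested passed it and 3.06% were higher in HCD-RD. For the 3p strands the same difference was -0.16 for miR-99a-3p and -0.49 for miR-100-3p, and both intervals spanned 0.

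Among male offspring of dams on HCD, those also fed HCD had the higher deposited folds of all 3 guides. From HCD-RD to HCD-HCD the log2 difference was 0.73 for miR-99a-5p (95% interval 0.27 to 1.18), 0.44 for miR-100-5p (-0.07 to 0.95) and 0.11 for miR-99b-5p (-0.42 to 0.65). HCD-HCD males chose the family, so these are descriptions. The interval of miR-99a-5p alone among the 3 lay above 0. With 698 miRNAs compared, 0 passed an adjusted p of 0.05 by the normal test and 56 had an unadjusted p under 0.05.

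Among male offspring fed HCD, the same pair of guides stood apart by the dam's diet. A further table of the authors lists 47 miRNAs between HCD-HCD and RD-HCD males, filtered at 2-fold and a p of 0.05. They are 2.9% of all miRNAs, with 10 (0.618%) higher in HCD-HCD and 37 lower. In the authors' deposited table of that comparison, miR-100-5p had a fold of 2.59 (95% interval 1.94 to 3.46), the largest of the 10 and the smallest p of the 47. miR-99a-5p had a fold of 2.48 (1.76 to 3.49) in the authors' deposited table, the third largest. This list also served to choose the family. The other 4 members were not listed. For miR-99b-5p the ratio built from the male table was 1.63 (1.13 to 2.37), under the fold that the list required.

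In females no member was called in any diet group. For miR-100-5p the authors' deposited table gave folds of 1.57 in HCD-HCD (95% interval 0.99 to 2.49, adjusted p = 0.94) and 1.43 in RD-HCD (0.91 to 2.24, adjusted p = 1.00). Its fold in HCD-RD females was 0.92 with no p in the authors' deposited table. miR-99a-5p was at 1.3-fold in HCD-HCD, 1.17-fold in RD-HCD and 0.78-fold in HCD-RD females in the authors' deposited tables, and every interval spanned 1. miR-99b-5p was at 1.06-, 1.22- and 0.79-fold in the same order in the authors' deposited tables. All 3 guides were thus below 1 in HCD-RD females and above 1 in the other female groups, with no call. The share of all miRNAs called was 0.0668% for HCD-HCD females and 1.69% for HCD-RD females. It was 0% for RD-HCD females, where 15 of 1497 miRNAs had an unadjusted p under 0.05 in the authors' DESeq2 test. In RD-HCD females, 10 of 850 miRNAs without a low-count remark had a fold at least as large as that of miR-100-5p, although its unadjusted p was 0.12. The authors normalised HCD-RD females in a separate table, so their folds and those of the other females are set side by side only.

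The 2 diet groups of 1 female table share their RD-RD libraries and normalisation. RD-HCD females stand in the numbered set of RD-RD and HCD-HCD females do not, so the dam's diet and numbered set cannot be told apart here. From RD-HCD to HCD-HCD females the log2 difference was 0.15 for miR-99a-5p (95% interval -0.53 to 0.84) and 0.13 for miR-100-5p (-0.52 to 0.79), each with an adjusted p of 0.94 by the normal test over 581 miRNAs. Of these miRNAs, 0.516% were called. The male contrast of the same groups chose the family and is not set against these values.

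Male and female folds of the same diet group were compared next, over miRNAs without a remark in either sex. In HCD-RD, the male log2 fold exceeded the female by 0.91 for miR-99a-5p (95% interval 0.09 to 1.74, adjusted p = 0.19) and by 0.99 for miR-99b-5p (0.24 to 1.74, adjusted p = 0.11). Neither passed the normal test, where 26 of 477 miRNAs did, 5.45%. miR-100-5p had no p in HCD-RD females and so no difference with an error. In HCD-HCD the male excess was 0.90 for miR-99a-5p (0.08 to 1.72) and 0.63 for miR-100-5p (-0.19 to 1.45), given as a description, and 0 of 447 miRNAs passed the normal test, with 19 at an unadjusted p under 0.05. In RD-HCD the sign was the other way, with -0.33 for miR-99a-5p (-1.14 to 0.48) and -0.62 for miR-100-5p (-1.42 to 0.18). In that diet group the male fold crosses numbered sets and the female fold does not, so sex and numbered set cannot be told apart. There 0 of 333 miRNAs passed the normal test and 10 had an unadjusted p under 0.05. These are single differences with wide intervals, and a sex difference of the guides was not shown in any diet group.

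**Figure D2:**
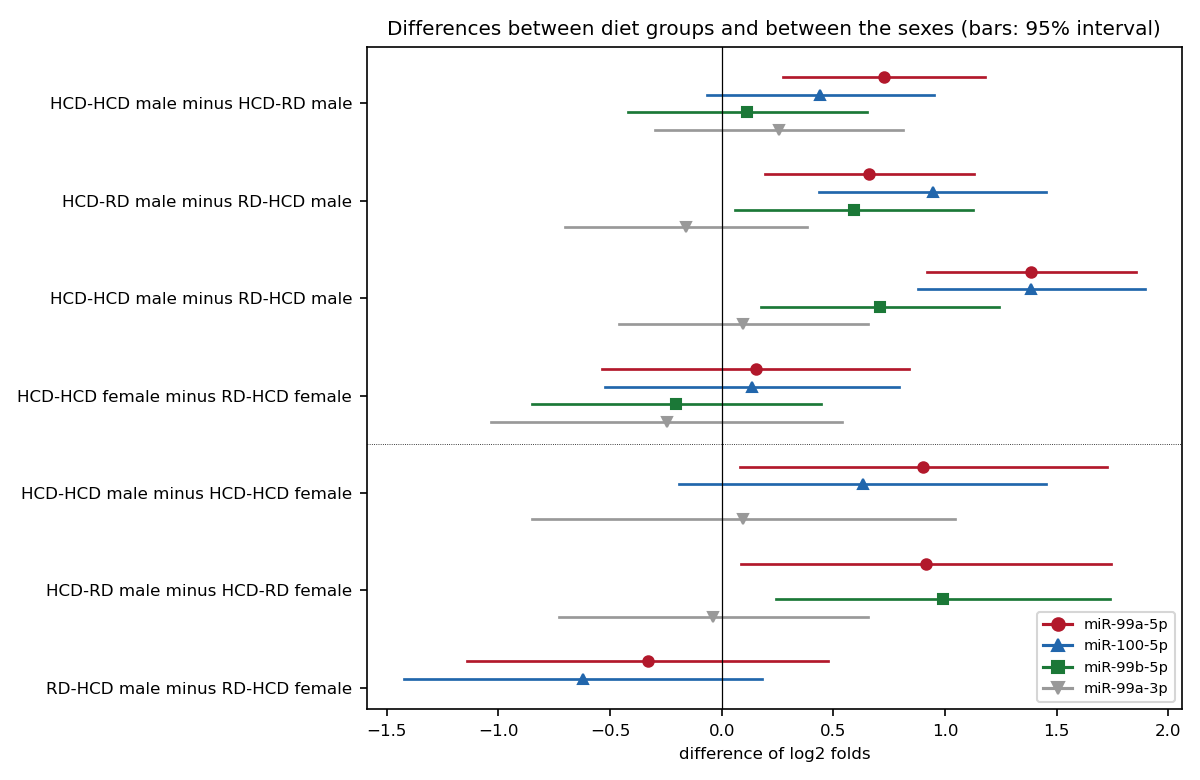
Differences of log2 folds (horizontal axis) between diet groups of 1 table, above the dotted line, and between males and females of a diet group, below it, for the 3 guides and miR-99a-3p. Points are differences and bars are 95% intervals, and a marker is missing where no error could be formed. The contrast of HCD-HCD with RD-HCD males chose the family, so all differences that involve HCD-HCD males are descriptions. The difference between HCD-RD and RD-HCD males is not independent of that choice. For the exchange of diets between dam and offspring in males, the interval of miR-100-5p runs from 0.44 to 1.45, and between HCD-HCD and RD-HCD females the intervals of all 4 miRNAs span 0.

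The 3p strands, which are usually the less loaded strands of these hairpins, were called in none of the 6 comparisons, and none reached an unadjusted p under 0.05. Of all miRNAs, 32.5% did in HCD-HCD males, 32.1% in HCD-RD males and 12.5% in RD-HCD males, and between 1% and 11.5% did in the female groups. miR-99a-3p was at 0.92-, 0.77- and 0.86-fold in HCD-HCD, HCD-RD and RD-HCD males of the authors' deposited table (adjusted p = 0.32 in HCD-RD and 0.82 in RD-HCD). In females the authors' deposited tables had it at 0.86 (HCD-HCD), 0.79 (HCD-RD) and 1.02 (RD-HCD). It was thus below the RD-RD level in 5 comparisons, with no call. After centring on the median of all miRNAs its log2 fold in HCD-HCD males went from -0.12 to 0.15. miR-99b-3p lay between 0.8 and 1.14 in all groups of the authors' deposited tables. miR-100-3p was at 1.55-fold in HCD-HCD males (95% interval 0.92 to 2.60), 0.87-fold in HCD-RD males and 1.22-fold in RD-HCD males in the authors' deposited table. Centring in the same way took its log2 fold in HCD-RD males from -0.20 to 0.05. It was the 1 member with a low-count remark, a mean below 10 unique molecular identifiers in 1 group of the HCD-HCD female comparison.

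The strands of a hairpin can be set against each other, since both come from 1 precursor. In HCD-HCD males the log2 fold of miR-99a-5p exceeded that of miR-99a-3p by 1.40 (95% interval 0.72 to 2.08), and 8 of 216 hairpins, miR-99a included, had a 5p excess that large. The excess was 0.67 for miR-99b and 0.65 for miR-100 (-0.24 to 1.54), while the median over all hairpins was -0.21. For these, 42 and 44 of 216 hairpins, respectively, had an excess at least as large. In HCD-RD males it was 0.93 for miR-99a (0.28 to 1.59), 0.57 for miR-99b and 1.04 for miR-100 (0.10 to 1.98), against a median of -0.16. There 24, 52 and 18 of 216 hairpins, respectively, had an excess at least as large. In RD-HCD males the differences were 0.11, 0.07 and -0.39, against a median of -0.08. So the guide stood above its partner strand in all 3 hairpins in both male groups of HCD dams. Over all hairpins, the 5p strand stood above the 3p strand in 88 of 216 in HCD-HCD males and 90 of 216 in HCD-RD males. These counts go by arm, whichever strand is the usual guide of a hairpin. The sign was the same in HCD-HCD females, at 0.60, 0.17 and 0.51 for miR-99a, miR-99b and miR-100. It was also the same in RD-HCD females (0.20, 0.10 and 0.31), but not in HCD-RD females (-0.02, -0.02 and -0.15). For these hairpins every female interval that could be formed spanned 0. The HCD-HCD male folds of miR-99a-5p and miR-100-5p chose the family, so their excess in that group is a description. In HCD-RD males the intervals of miR-99a and miR-100 lay above 0. These errors add those of the strands as if independent, and the comparison was chosen after the values had been seen.

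**Figure D3:**
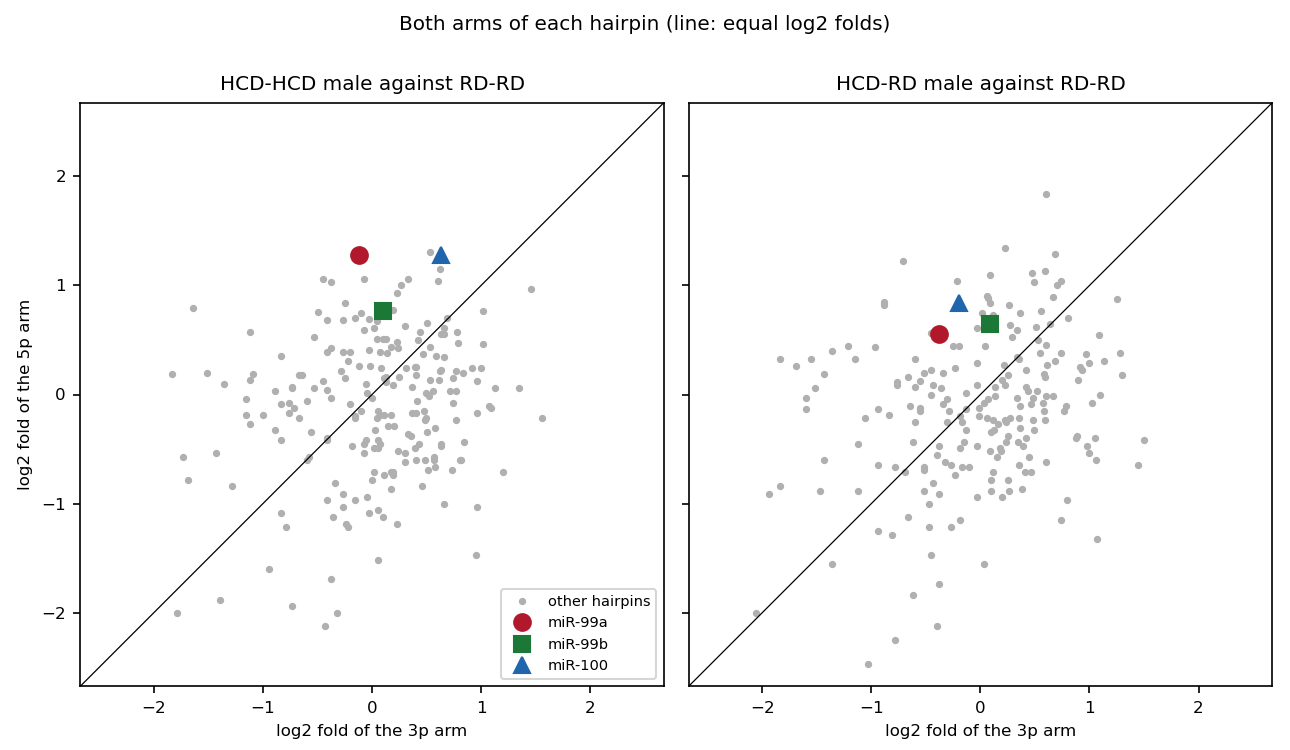
Log2 fold of the 5p strand (vertical axis) against that of the 3p strand (horizontal axis) for 216 hairpins with both strands free of a low-count remark, in HCD-HCD males and in HCD-RD males against RD-RD. Each point is 1 hairpin, and the line marks equal log2 folds. All 3 family hairpins lie above the line in both panels, with miR-99a 1.40 above it in HCD-HCD males. The HCD-HCD male folds of miR-99a-5p and miR-100-5p chose the family, so their places in that panel are a description.

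The other hairpins of the clusters are let-7c-1 and Mir125b-2 beside Mir99a, let-7a-2 and Mir125b-1 beside Mir100, and let-7e and Mir125a beside Mir99b. Their starts lie 721 and 47337 bases from that of Mir99a, 5291 and 50501 bases from that of Mir100, and 164 and 624 bases from that of Mir99b. let-7 miRNAs mark differentiated cells and are opposed by Lin28, and miR-125 miRNAs are the relatives of the worm miRNA lin-4. let-7a-5p, let-7c-5p and miR-125b-5p also come from hairpins elsewhere or from both clusters, so their values do not belong to 1 locus.

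All 5 partner guides rose in HCD-RD males, and all 5 stood above RD-RD in HCD-HCD males too. In HCD-HCD males they were between 1.53-fold for let-7e-5p and 1.83-fold for let-7a-5p in the authors' deposited table. In HCD-RD males they were between 1.46-fold for miR-125b-5p and 1.82-fold for let-7c-5p in the authors' deposited table, and adjusted p-values of the authors' DESeq2 test ran from 0.0013 for let-7a-5p to 0.010 for miR-125b-5p. Some let-7 guides from hairpins outside these clusters were also above RD-RD. Their log2 folds in HCD-RD and HCD-HCD males were 1.29 and 1.15 for let-7b-5p and 0.85 and 1.03 for let-7g-5p. They were 0.70 and 0.70 for let-7d-5p and 0.57 and 0.70 for let-7i-5p. The partner list had 13 names in 12 rows, with let-7a-1-3p and let-7c-2-3p, from other hairpins of the same guides, in a shared row. Of these rows 6 rose and 1 fell in HCD-RD males, where 6.38% of all miRNAs were called higher and 12% lower. In HCD-HCD males, whose comparison chose the family, 7 were called higher and 1 lower beside 5.61% and 13.7% of all miRNAs, and nothing is read from that count. In RD-HCD males none of the 12 was called, with let-7c-5p highest at 1.4-fold in the authors' deposited table (unadjusted p = 0.047, adjusted p = 0.40). In females 1 partner was called, let-7c-5p in HCD-RD, at 1.76-fold in the authors' deposited table (adjusted p = 0.010), and it was at 1.97-fold in HCD-HCD females (adjusted p = 0.058). For the same HCD-RD females the authors' deposited table had folds of 0.74 for let-7c-1-3p, the strand made by the hairpin beside Mir99a alone, and 0.78 for miR-99a-5p, and neither was called.

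The partner strands of the 3p side did not move together. In HCD-HCD males the authors' deposited table had folds of 1.68 for let-7c-1-3p and 1.66 for the shared row of let-7a-1-3p and let-7c-2-3p, both called higher. miR-125b-2-3p, from the hairpin at the far end of the Mir99a cluster, fell to 0.67-fold in HCD-RD males (adjusted p = 0.00049) and was at 0.75-fold in HCD-HCD males in the authors' deposited table. miR-125b-1-3p, from the Mir100 cluster, rose 1.36-fold in HCD-RD males in the authors' deposited table (adjusted p = 0.048). Over members and partners, the median log2 fold in HCD-HCD males was 0.77 for 8 guides and 0.10 for 10 strands of the 3p side, and in HCD-RD males 0.74 and 0.16, beside 0.06 and 0.08 for all miRNAs without a low-count remark. The HCD-HCD medians include the guide values that chose the family, so they are a description. For the partners alone, the medians of guides and 3p strands were 0.74 and 0.11 in HCD-HCD males. In HCD-RD males the partner medians were 0.75 and 0.37.

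**Figure D4:**
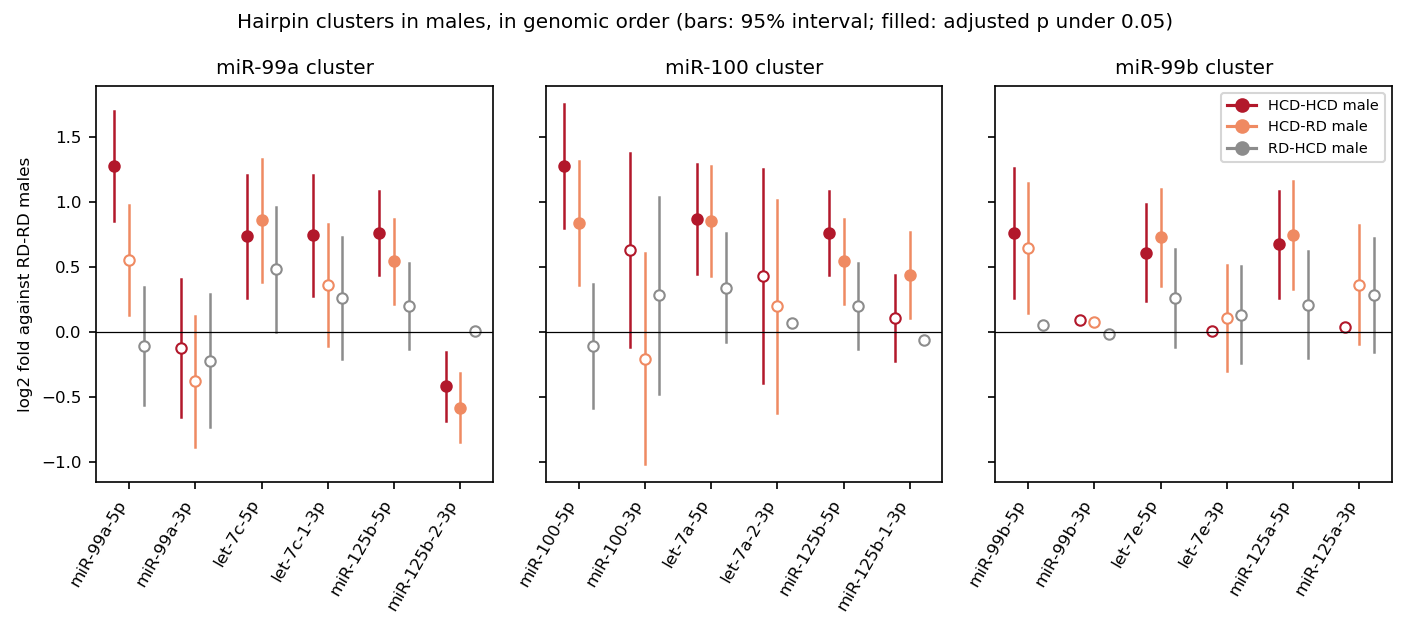
Log2 fold against RD-RD males (vertical axis) of the strands of the 3 clusters in genomic order (horizontal axis), for HCD-HCD, HCD-RD and RD-HCD males. Bars are 95% intervals, filled points had an adjusted p under 0.05, and miR-125b-5p, made by hairpins of both clusters, is drawn in each. The guides are filled or above 0 in HCD-HCD and HCD-RD males, and miR-125b-2-3p alone is filled below 0. Folds of family guides in HCD-HCD males chose the family, so their places in that group are a description.

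The miR-10 relatives, whose guides carry the seed ACCCUGU in place of ACCCGUA, had no call in any comparison. miR-10a-5p was at 1.68-fold in HCD-HCD males, 1.25-fold in HCD-RD males and 0.88-fold in RD-HCD males in the authors' deposited table. miR-10b-5p was at 1.42-, 0.97- and 0.82-fold in the same groups of the authors' deposited table. Without adjustment, 1 of the 4 relatives had a p under 0.05 in HCD-HCD males and none did in HCD-RD males, beside 32.5% and 32.1% of all miRNAs.

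The miRNAs with the profile most like that of miR-99a-5p and miR-100-5p were found among 629 miRNAs without a low-count remark in any comparison, by the root mean square difference of log2 folds over the 6 comparisons. This likeness includes the comparison that chose the guides and is a description. The nearest was miR-329-3p at 0.18, a miRNA of the imprinted Dlk1-Dio3 region, with folds of 2.3 in HCD-HCD and 2 in HCD-RD males in the authors' deposited table. Next came miR-325-3p at 0.23, miR-487b-3p at 0.24, miR-466d-3p at 0.25 and miR-34b-3p at 0.25, against a median of 0.68 over all miRNAs compared. miR-99b-5p was at 0.29, with 10 miRNAs outside the family nearer than it, whereas miR-99a-3p was at 0.80, with 385 nearer.

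**Figure D5:**
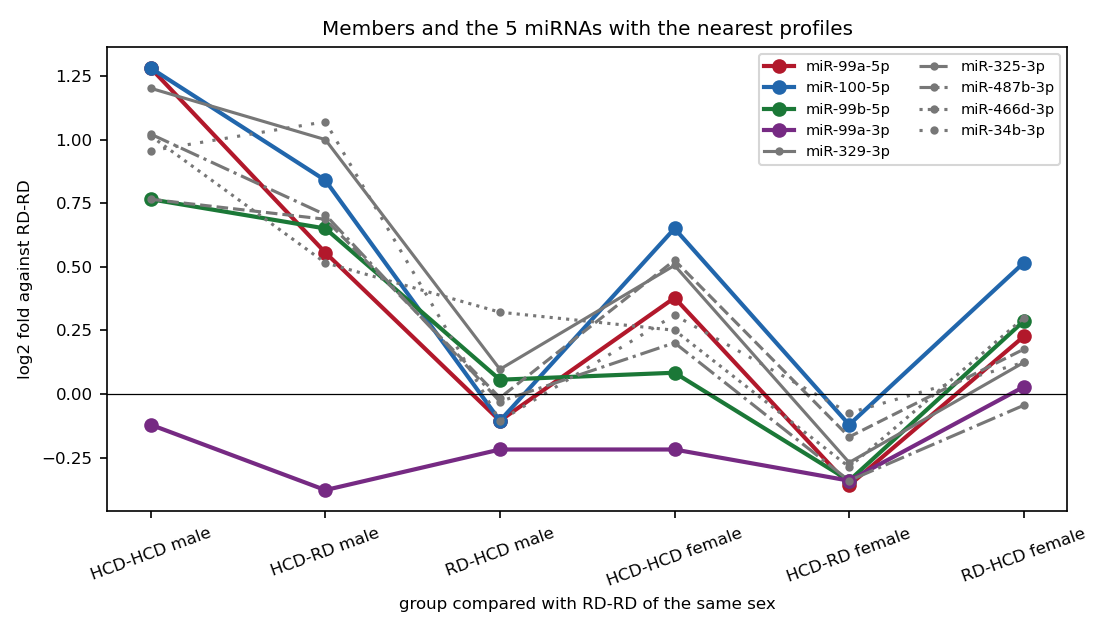
Log2 fold against RD-RD of the same sex (vertical axis) in the 6 comparisons (horizontal axis) for 4 members, in colour, and for the 5 miRNAs with the nearest profiles, in grey. Lines join the values of 1 miRNA and carry no order. The guides and their nearest profiles are high in HCD-HCD and HCD-RD males and below 0 in HCD-RD females, while miR-99a-3p lies below 0 in every group but RD-HCD females.

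Markers of the cell types that hypothalamic tissue can hold were listed, and none of them carried a low-count remark. In HCD-HCD males, 0 of 5 neuronal markers were higher and 1 was lower, miR-138-5p, with a fold of 0.44 in the authors' deposited table. Of 4 oligodendrocyte markers 1 was higher and 1 lower, of 5 endothelial and mural markers 2 were higher and 0 lower, and of 4 microglia and leukocyte markers 0 were higher and 2 lower. Of 4 erythrocyte markers 0 were higher and 1 lower, and of 5 choroid plexus and ependymal markers 2 were higher and 2 lower. In HCD-RD males the counts of higher and lower markers were 0 and 0, 1 and 2, 1 and 1, 0 and 2, 1 and 2, and 1 and 2 in the same order of lists. No marker was called in RD-HCD males or in any female group. Over all miRNAs, 5.61% were called higher and 13.7% lower in HCD-HCD males, and 6.38% and 12% in HCD-RD males. The part of these cell types in the guide values was not tested.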

How the data were processed

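Small RNA of 25 hypothalamus libraries was sequenced with the QIAseq miRNA kit, per the labels' protocols. The fold (a ratio, to 2 decimals) and the unadjusted p-value of each miRNA were made by the authors with DESeq2, per the file headers (DESeq2 version not stated there). Fold regulation, a score deposited by the authors, is the fold or minus its inverse below 1, per the file headers. The submitters' processing notes name build mm10, and the sources used here give neither aligner nor counting rule. A deposited remark marks a mean under 10 unique molecular identifiers.

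The Benjamini-Hochberg adjustment ran over all miRNAs with a p, without piRNAs. Implied errors are the size of the log2 fold over the normal score of its p, for sizes of at least 0.1. Differences between diet groups of 1 table used these errors, both groups' or, where 1 was missing, the other's. Differences between the sexes were formed only where both errors were present. Each had a normal test over miRNAs without a remark, because no value per library allowed an exact test. Members, lists and tests were chosen with earlier results of these data known. Named were all members, cluster partners, miR-10 relatives and the 5 nearest profiles, and, after the values had been seen, some let-7 guides of other hairpins. Calls and difference errors were tested on simulated data, and over 28 listed miRNAs the built error was a median of 1.09 times that implied by the deposited list. Python 3.11.15, pandas 2.3.3 and scipy 1.17.1 were used. Other adjustments, feature sets, scalings and error rules were tried. Of 43 libraries in the sample sheets, 18 were not analysed here, and RD-HCD male libraries carry other numbers there than in the sample titles.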

Additional observations from a re-analysis of the deposited data

Results flagged for a closer look

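Between the sexes, 3 partner strands of the clusters passed the normal test, all in HCD-RD. None of the members for which an error could be formed did, and the others, miR-100-5p in HCD-RD and miR-99b-3p in every group among them, were not tested. The male log2 fold exceeded the female by 0.98 for miR-125b-5p (95% interval 0.38 to 1.58, adjusted p = 0.038) and by 1.03 for miR-125a-5p (0.36 to 1.71, adjusted p = 0.047). For miR-125b-2-3p the male minus female difference was -0.91 (-1.49 to -0.33, adjusted p = 0.044). In the authors' deposited tables miR-125b-5p was at 1.46-fold in males and 0.74-fold in females, miR-125a-5p at 1.68- and 0.82-fold, and miR-125b-2-3p at 0.67- and 1.26-fold. Males and females came from tables that were normalised separately. Of 477 miRNAs compared in HCD-RD, 26 passed this test.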

How the results depend on the processing

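No paired analysis was possible because the files used here hold no values per library, and for the same reason leaving out replicates was not run. Under Benjamini-Yekutieli adjustment the counts of all miRNAs called against RD-RD went from 275 to 122 in HCD-HCD males, 262 to 131 in HCD-RD males, 21 to 6 in RD-HCD males, 1 to 0 in HCD-HCD females and 22 to 7 in HCD-RD females. Holm's adjustment gave 55, 69 and 7 in the male groups and 7 in HCD-RD females, and 0 members called in HCD-RD males in place of 1. With only miRNAs without a remark, the counts were 177 for HCD-HCD males, 0 for RD-HCD males and 11 for HCD-HCD females, and 3 members passed in HCD-RD males. Centring on miRNAs without a remark gave 2 in place of 0 miRNAs that differed between HCD-HCD and HCD-RD males. Of 344 alternative log2 folds of members and partners, 0 called values changed sign, and 36 moved by more than their implied error (or 0.1 where there was none), all when centred on the median of all miRNAs. Folds rounded to 2 decimals, 3 or 4 libraries a group and unknown depth limit what can be seen.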
